A study of Homo sapiens with 148 samples.

Results

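The collagen genes were all rows of the deposited expression table whose name has the form COL, a type number, A and a chain number. The pattern matched 44 of 49085 gene names, and each of the 44 had a single row. They were grouped by the structure that their proteins form, into 11 fibrillar genes, 8 basement membrane genes and 25 others. RNA-seq of H9 cells, an established human embryonic stem cell (hESC) line, and of cells derived from them covered 6 stages with 2 samples each, 12 of the 148 samples of the series. The stages were undifferentiated hESCs, definitive endoderm (DE) at day 4, primitive gut tube-like cells (PGT) at day 7, pancreatic progenitors (PP) at day 14, SC-β organoids, the islet-like aggregates made from stem cells, at day 35, and PH, a stage that neither the labels nor the methods define and for which no day is given. All cells were of wild-type genotype, and all stages but hESCs were labelled with pancreatic differentiation as their treatment, so every stage comes from 1 line. The table gives a single value per gene and stage, the authors' mean of the 2 samples in TPM, which divides reads by transcript length and scales each stage to a fixed total. Every value below is such a mean, with no replicate spread, no error and no test. Differences between stages are therefore descriptions of these means.

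Collagens are secreted or membrane proteins built from chains that wind around each other into a helix of repeated glycine triplets. Fibrillar collagens assemble into the cross-banded fibrils of connective tissue, whereas type IV collagen forms the sheet-like network on which epithelia rest. The remaining types decorate fibrils (the FACIT family), form beaded microfilaments (type VI), anchor basement membranes (type VII) or span the cell membrane. In the pancreas, basement membranes surround ducts, acini and islet blood vessels, and fibrillar collagens are made mainly by mesenchymal cells.

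The type IV genes lie in the genome as 3 head-to-head pairs, so that the genes of a pair are transcribed away from each other. The stretch between the starts of COL4A1 and COL4A2 and the promoter windows of COL4A5 and COL4A3 are shown because the levels of these pairs are compared below. They are from RefSeq on GRCh38.p14, are written 5′ to 3′, and carry in capitals every match to CCAAT or GGGCGG on either strand. The stretch from the COL4A1 start to the COL4A2 start, on the forward strand of chromosome 13 (chr13:110307157-110307284), has 128 bases with both starts included. The COL4A5 window (chrX:108439588-108439887, forward strand) and the COL4A3 window (chr2:227164374-227164673, forward strand) each cover 300 bases around the first transcribed base of that gene alone. On RefSeq the partners' starts lie outside these windows. The nearer COL4A6 start is 380 bases from the COL4A5 start, and a second COL4A6 start is 1416 bases from it. The COL4A4 start is 419 bases from the COL4A3 start.

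COL4A1-COL4A2: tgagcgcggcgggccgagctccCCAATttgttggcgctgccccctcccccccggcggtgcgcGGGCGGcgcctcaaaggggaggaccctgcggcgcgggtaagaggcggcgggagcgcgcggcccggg
COL4A5: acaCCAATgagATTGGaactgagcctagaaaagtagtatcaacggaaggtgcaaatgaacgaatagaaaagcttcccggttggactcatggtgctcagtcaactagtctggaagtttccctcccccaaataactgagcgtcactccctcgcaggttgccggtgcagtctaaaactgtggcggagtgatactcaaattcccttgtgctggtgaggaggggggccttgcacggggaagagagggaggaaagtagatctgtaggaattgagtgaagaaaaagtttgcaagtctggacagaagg
COL4A3: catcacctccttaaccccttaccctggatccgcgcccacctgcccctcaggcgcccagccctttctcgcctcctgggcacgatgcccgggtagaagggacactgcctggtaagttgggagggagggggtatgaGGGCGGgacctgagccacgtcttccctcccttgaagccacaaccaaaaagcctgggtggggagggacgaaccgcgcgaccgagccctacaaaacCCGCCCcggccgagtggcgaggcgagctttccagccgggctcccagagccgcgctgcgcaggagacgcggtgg

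The COL4A1-COL4A2 stretch held 1 CCAAT and 1 GGGCGG and was 79.7% G and C. The COL4A5 window held 2 matches to CCAAT, 1 on each strand, with none to GGGCGG, and was 49.3% G and C. The COL4A3 window held 2 matches to GGGCGG, 1 on each strand, with none to CCAAT, and was 67.7% G and C. None of the 3 sequences held TATAAA on either strand. Of the 44 collagen genes, 32 had a promoter in the RefSeq table, with 44 promoters in all. COL1A1, COL1A2, COL2A1, COL3A1, COL5A2, COL6A1, COL6A5, COL8A1, COL9A3, COL14A1, COL20A1 and COL22A1 had none there. CCAAT was found in 14 of the 44 collagen promoters (31.8%) and in 34.6% of all 35116 promoters. GGGCGG was found in 24 (54.5%) against 45.0%, and TATAAA in 8 (18.2%) against 11.5%. The median G and C content was 63.7% in the collagen promoters and 58.7% in all promoters. A match to such a short motif is a description of the letters and shows no binding.

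Of the 44 genes, 41 reached 1 TPM in at least 1 stage and 26 did so in every stage. COL15A1, COL20A1 and COL6A5 stayed below 1 TPM in all 6 stages. A further 11 peaked between 1 and 10 TPM, 30 reached 10 TPM and 13 reached 100 TPM in a stage. The number of collagen genes at 1 TPM or more was 29 in hESCs, then 33 in DE, 30 in PGT, 34 in PP, 32 in PH and 39 in SC-β. The median collagen level was 2.78 TPM in hESCs, then 7.72 in DE, 5.59 in PGT, 7.42 in PP, 11.1 in PH and 16.0 in SC-β. Across the 28202 names at 1 TPM or more in a stage, the medians were 1.94, 3.65, 3.01, 2.81, 2.94 and 5.07 TPM in the same order. The collagen median was above the median of those names in every stage.

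**Figure D1:**
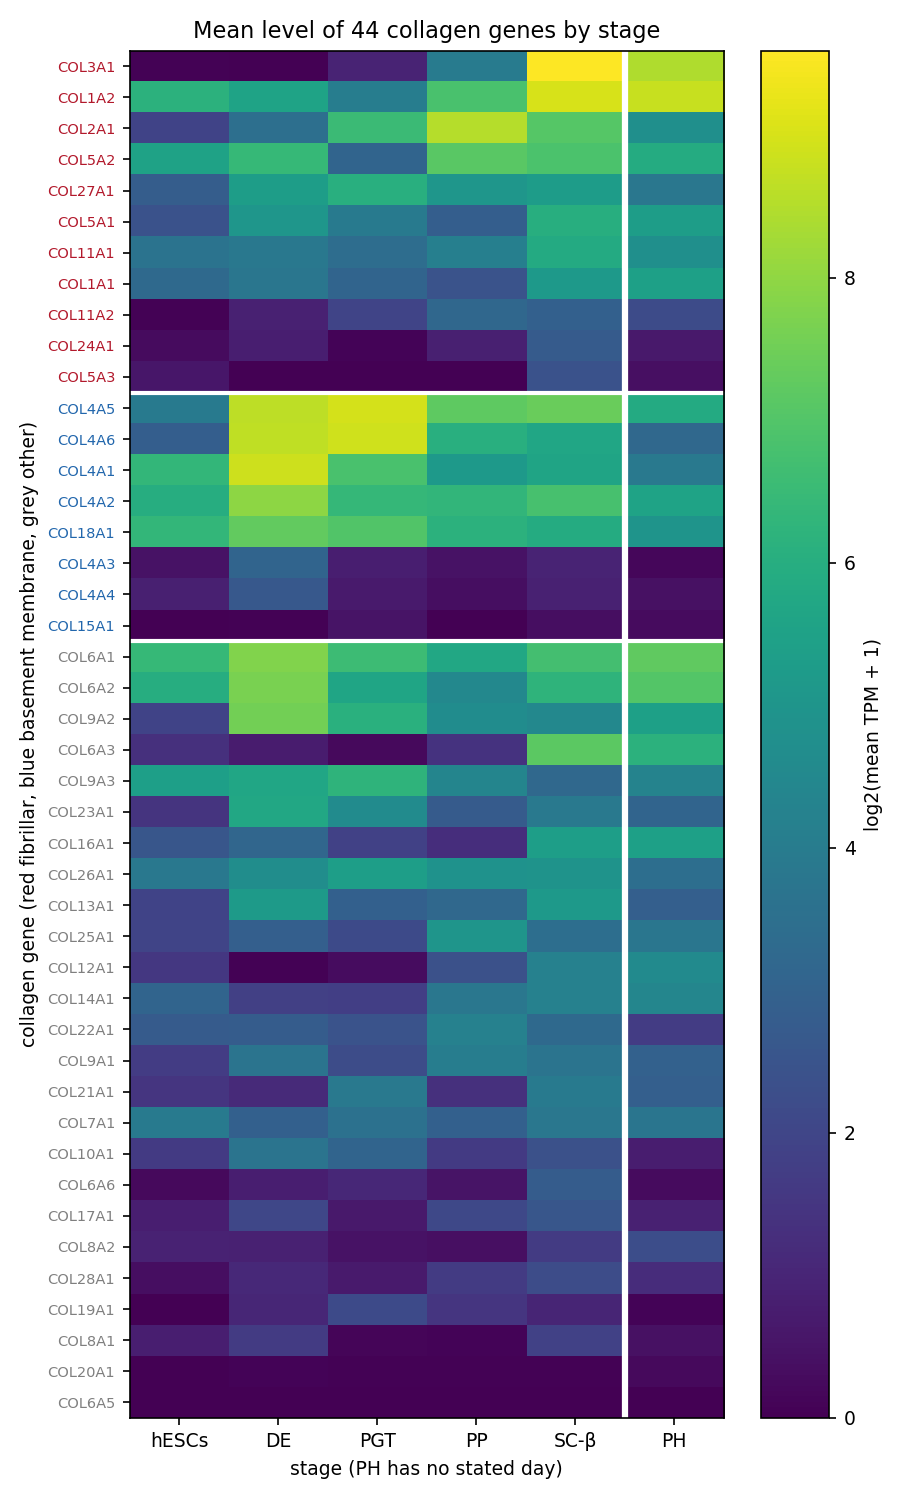
Heatmap of the mean level of each of the 44 collagen genes (rows, grouped as fibrillar in red, basement membrane in blue and other in grey, and sorted by highest level) in the 6 stages (columns), as log2(mean TPM + 1). COL4A1, COL4A5 and COL4A6 are brightest in DE and PGT, and COL4A2, COL4A3 and COL4A4 are brightest in DE. COL3A1, COL1A2 and COL6A3 are bright in SC-β and PH.

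Summed over all 44 genes, collagen RNA was at 649 TPM in hESCs, then 2765 in DE, 1928 in PGT, 1364 in PP, 1718 in PH and 2764 in SC-β. DE and SC-β thus had nearly the same total, made of different classes. Basement membrane genes made up 61.1% of the collagen total in DE and 67.4% in PGT, but 15.8% in SC-β and 9.04% in PH. Fibrillar genes made up 8.70% in DE and 11.3% in PGT, then 51.6% in PP, 57.9% in PH and 62.9% in SC-β. The other genes ranged from 19.4% in PP to 39.4% in hESCs. The 2 most abundant chains held 25.4% of the total in hESCs, then 31.8% in DE, 50.8% in PGT, 37.5% in PP, 45.6% in PH and 46.3% in SC-β. To reach 90% of the total took from 11 of the 44 genes in PGT to 17 in SC-β. The leading chain was COL6A1 in hESCs, COL4A1 in DE, COL4A5 in PGT, COL2A1 in PP, COL1A2 in PH and COL3A1 in SC-β. The leading gene was a different one in each of the 6 stages.

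**Figure D2:**
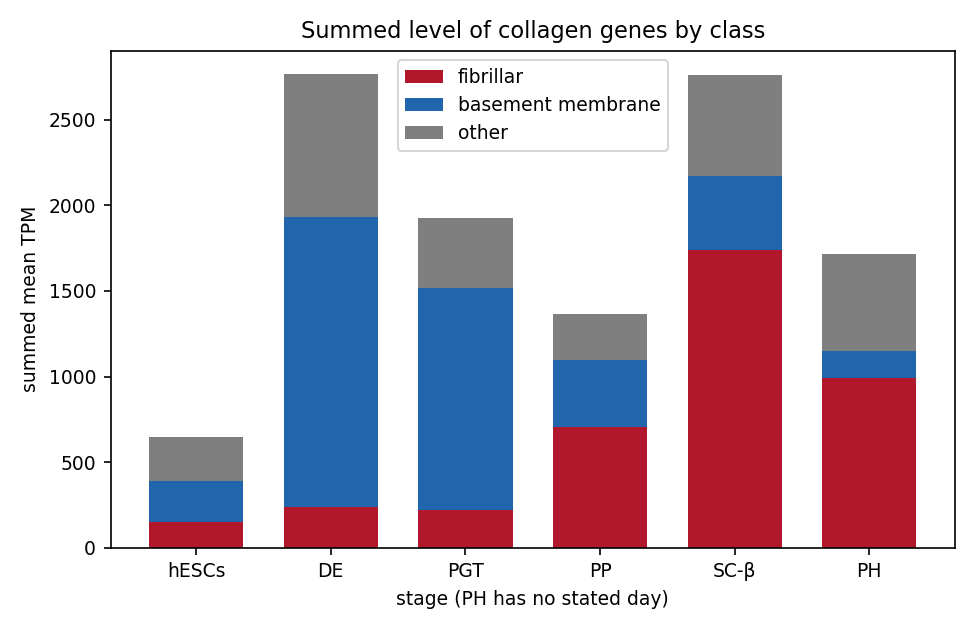
Stacked bars of summed mean TPM (vertical axis, from 0) of fibrillar, basement membrane and other collagen genes in each stage. DE and SC-β reach similar totals of 2765 and 2764 TPM, with 1689 TPM from basement membrane genes in DE and 1737 TPM from fibrillar genes in SC-β.

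Differences between stages were taken as log2 ratios after adding 1 TPM to each mean, and a gene was counted as higher or lower from 2-fold. The 7 comparisons share stage means with each other, so their counts are not independent. In DE against hESCs, 18 of the 44 collagen genes were higher and 3 lower. Among all 49085 names 12.9% were higher and 2.55% lower, and among the names at 1 TPM or more in a stage 22.5% and 4.43%. The median log2 ratio was 0.87 for the collagen genes and 0.44 for names at 1 TPM or more. In PGT against DE, 4 were higher and 16 lower, beside 2.3% and 4.92% of all names and 4.0% and 8.56% of names at 1 TPM or more. The medians were -0.43 and -0.14. The collagen genes thus included a larger share of lower genes than the table as a whole in this step.

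In PP against PGT, 12 collagen genes were higher and 11 lower, beside 2.74% and 3.25% of all names and 4.77% and 5.65% of names at 1 TPM or more. In PH against PP, 11 were higher and 14 lower, beside 5.14% and 5.73% of all names and 8.94% and 9.97% of names at 1 TPM or more. In both comparisons about as many collagen genes lay on each side, and their median log2 ratios were -0.21 and -0.03. In SC-β against PP, 17 were higher and 3 lower, beside 10.6% and 0.939% of all names and 18.5% and 1.63% of names at 1 TPM or more. In SC-β against PH, 20 were higher and 1 lower, beside 14.7% and 2.41% of all names and 25.5% and 4.19% of names at 1 TPM or more. In SC-β against hESCs, 29 were higher and 1 lower, beside 22.2% and 3.7% of all names and 38.6% and 6.44% of names at 1 TPM or more. The shares of collagen genes that were higher in these 3 comparisons (38.6%, 45.5% and 65.9%) exceeded those backgrounds. The lower share of 2.27% against PH and against hESCs did not.

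TPM depends on a fixed total, and 31.8% (DE) to 50.9% (PH) of it belonged to a few structural RNAs. Across 13938 genes that reached 1 TPM in all 6 stages, the median log2 ratio was 0.42 in DE against hESCs, -0.14 in PGT against DE, -0.09 in PP against PGT, -0.19 in PH against PP, 0.25 in SC-β against PP, 0.47 in SC-β against PH and 0.47 in SC-β against hESCs. A collagen log2 ratio close to these values differs little from that of the typical gene.

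**Figure D3:**
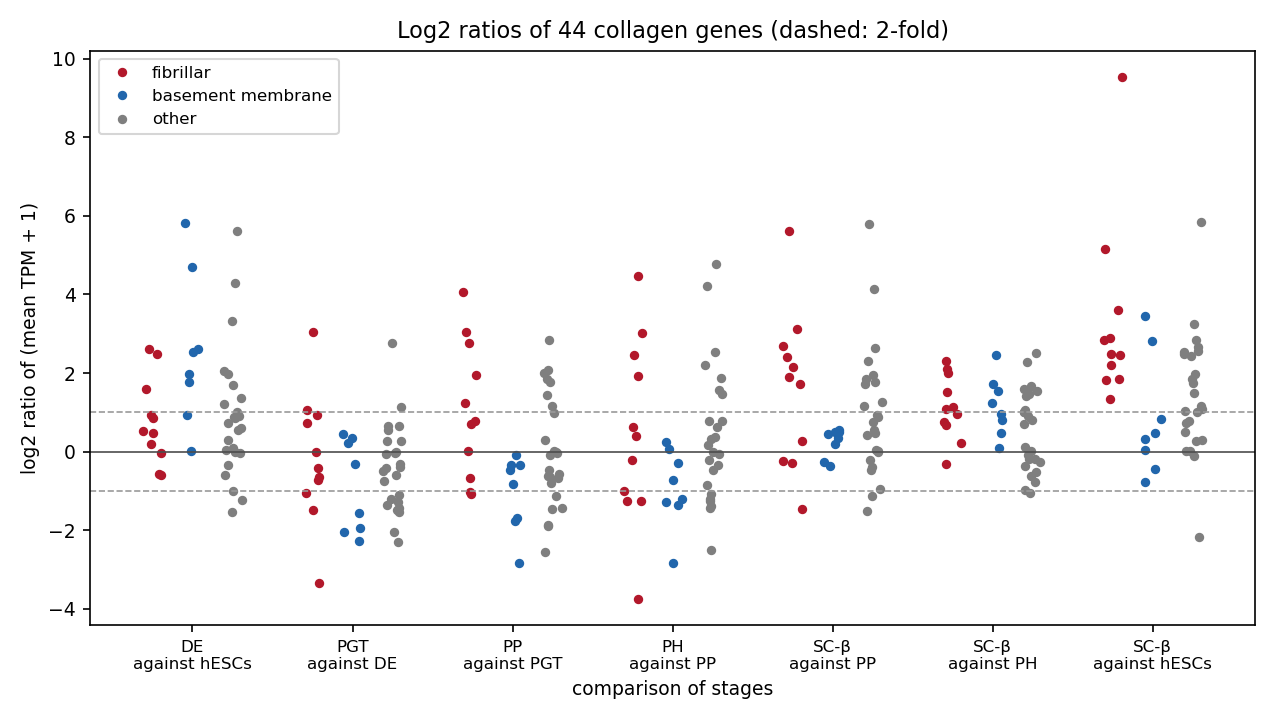
Log2 ratio of (mean TPM + 1) of each collagen gene (points) in the 7 comparisons (horizontal axis), with fibrillar genes in red, basement membrane genes in blue and other genes in grey, and dashed lines at 2-fold. All 11 fibrillar genes lie above the upper line in SC-β against hESCs, and 6 of the 8 basement membrane genes do in DE against hESCs. Of names at 1 TPM or more in a stage, 38.6% and 22.5% were as much higher in these 2 comparisons.

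The stage of the highest level was compared in the same way for the 41 genes that reached 1 TPM. The highest level was in hESCs for 1 (2.4%, beside 12.5% of all names at 1 TPM or more), in DE for 11 (26.8% beside 20.6%), in PGT for 6 (14.6% beside 9.94%) and in PP for 6 (14.6% beside 4.66%). It was in PH for 5 (12.2% beside 13.5%) and in SC-β for 12 (29.3% beside 38.8%). The collagen shares were above those of the table in DE, PGT and PP and below them in hESCs and SC-β, as a description with no test. In PH the collagen share was close to that of the table, and each collagen share rests on at most 12 genes. Without the PH column, SC-β held the highest mean of 18 of the 44 genes in place of 13. The only gene with its highest mean in hESCs was COL7A1, the anchoring fibril chain, at 14.3 TPM against 6.60 to 13.1 TPM elsewhere.

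Type IV collagen was the most abundant class at the endoderm and gut tube stages. COL4A1 and COL4A2 encode the chains of the common basement membrane network. COL4A1 (ENSG00000187498.16, chromosome 13, 110148963 to 110307157, reverse strand) was at 80.3 TPM in hESCs, then 470 in DE, 113 in PGT, 34.3 in PP, 13.5 in PH and 47.0 in SC-β. COL4A2 (ENSG00000134871.19, chromosome 13, 110305812 to 110513209, forward strand) had a mean of 61.4, 246, 82.4, 77.7, 46.3 and 111 TPM in that order. Both were highest in DE, with log2 ratios to hESCs of 2.53 and 1.99, and both were lower in PGT (-2.05 and -1.57). After PGT they differed, since COL4A1 had a log2 ratio of -1.69 in PP against PGT and COL4A2 one of -0.08, which was 0.06 once mitochondrial and the 100 most abundant genes were left out of the totals. The ratio of COL4A1 to COL4A2 TPM was 1.31 in hESCs, 1.91 in DE and 1.37 in PGT, but 0.442 in PP, 0.292 in PH and 0.424 in SC-β. COL4A1 was thus the more abundant of the pair in hESCs, DE and PGT and COL4A2 in PP, PH and SC-β, and both are transcribed away from the 128-base stretch printed above. On GENCODE the outermost starts of the pair lie 1345 bases apart, and the gene bodies overlap.

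COL4A5 and COL4A6, which encode chains of another type IV network, showed the steepest difference of the class. COL4A5 (ENSG00000188153.14, chromosome X, 108439838 to 108697545, forward strand) had a mean of 14.3 TPM in hESCs, then 397 in DE, 501 in PGT, 147 in PP, 56.5 in PH and 167 in SC-β. COL4A6 (ENSG00000197565.17, chromosome X, 108155607 to 108439497, reverse strand) was at 6.29, 408, 478, 65.7, 8.36 and 50.6 TPM. Their log2 ratios in DE against hESCs were 4.70 and 5.81, and both were highest in PGT, a stage later than COL4A1 and COL4A2. The 2 genes were nearly equal in DE and PGT, with a ratio of COL4A6 to COL4A5 of 1.03 and 0.953. The ratio was 0.441 in hESCs, 0.448 in PP, 0.148 in PH and 0.303 in SC-β. COL4A6 RNA was thus at least 2-fold below COL4A5 RNA in each of these stages. On the GENCODE annotation their starts lie 341 bases apart.

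COL4A3 and COL4A4, which join COL4A5 in the network of the kidney glomerulus, were low. COL4A3 was at 7.54 TPM in DE and between 0.128 and 0.954 TPM at the other stages. COL4A4 was at 5.23 TPM in DE and between 0.278 and 0.856 TPM at the others. DE was the only stage in which either exceeded 1 TPM, and their starts lie 171 bases apart on GENCODE. All 6 type IV genes were higher in DE than in hESCs by at least 2-fold, beside 22.5% of names at 1 TPM or more. Of the 6, 4 (COL4A1 to COL4A4) were at least 2-fold lower in PGT than in DE, beside 8.56% of those names.

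The other basement membrane genes are the multiplexins, whose C-terminal parts are released as endostatin-like fragments. COL18A1 was at 80.4 TPM in hESCs, then 155 in DE, 125 in PGT, 70.1 in PP, 29.8 in PH and 58.6 in SC-β. COL15A1 did not exceed 0.409 TPM. In SC-β against PP, 0 of the 8 basement membrane genes were counted in either direction. Among names at 1 TPM or more, 18.5% were higher and 1.63% lower there. The sum of the 8 was 395 TPM in PP against 436 TPM in SC-β. Exons of COL18A1 overlap those of the antisense gene SLC19A1 over 18.5% of their length. SLC19A1 did not exceed 13.9 TPM, and whether counting used strand is not given in the sources used here. For COL4A3 the overlap with the antisense gene MFF-DT was 6.82%.

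**Figure D4:**
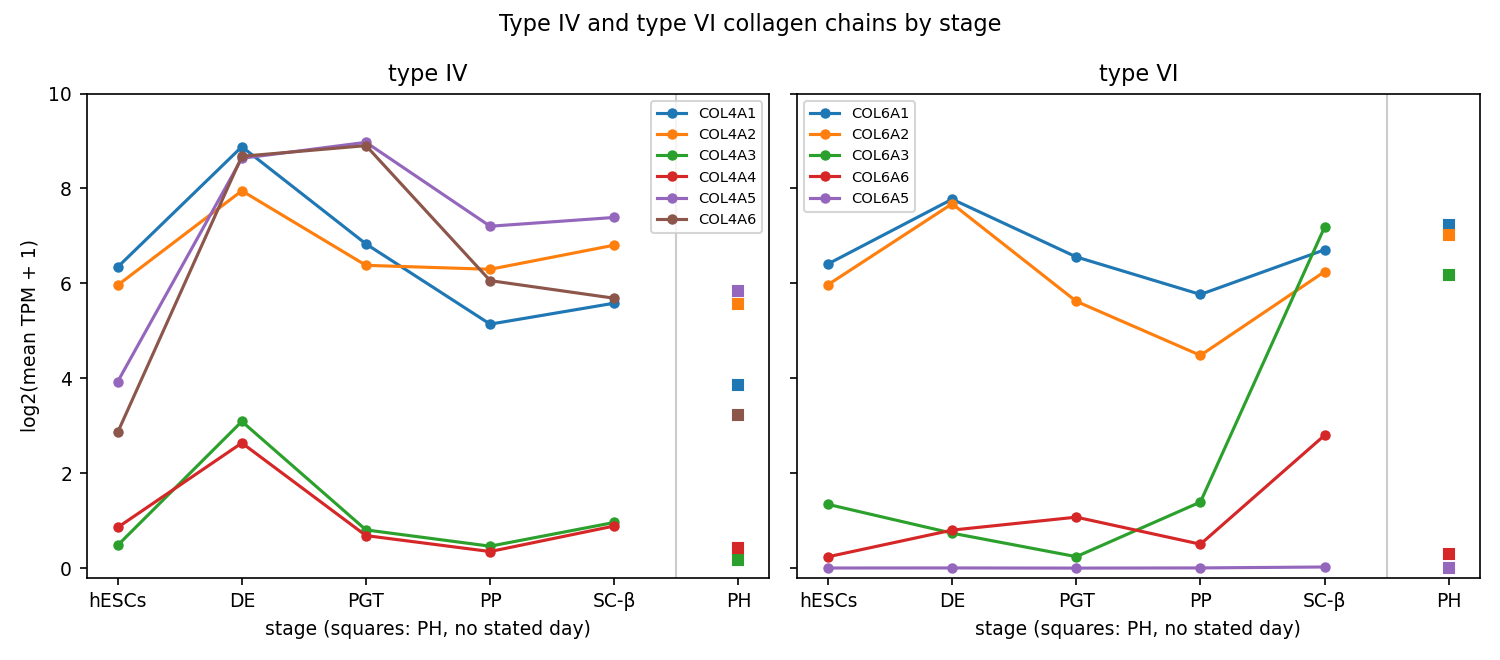
Mean level, as log2(mean TPM + 1), of the type IV chains (left) and type VI chains (right) by stage, with lines through the stages in order and squares for PH. COL4A1 and COL4A2 peak in DE and COL4A5 and COL4A6 in PGT, and COL6A3 is at 1.63 TPM in PP but at 144 TPM in SC-β.

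The fibrillar genes together were at 149 TPM in hESCs, then 241 in DE, 218 in PGT, 704 in PP, 994 in PH and 1737 in SC-β. All 11 were at least 2-fold higher in SC-β than in hESCs, beside 38.6% of names at 1 TPM or more. However, COL5A2, with a log2 ratio of 1.35, was at 0.83 after median-ratio rescaling, which equalises the typical gene between stages. COL3A1, the chain of type III collagen of distensible tissues, had the largest difference. COL3A1 (ENSG00000168542.17, chromosome 2, 188974373 to 189012746, forward strand) had a mean of 0.040 TPM in hESCs, then 0.011 in DE, 0.921 in PGT, 14.9 in PP, 349 in PH and 771 in SC-β. Its log2 ratio was 5.60 in SC-β against PP and 4.46 in PH against PP. It was the most abundant collagen of SC-β, with 44.4% of the fibrillar sum.

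COL1A1 and COL1A2 encode the chains of type I collagen, the main protein of bone, skin and tendon. COL1A2 (ENSG00000164692.19, chromosome 7, 94394895 to 94431227, forward strand) had a mean of 70.0 TPM in hESCs, then 46.1 in DE, 15.9 in PGT, 114 in PP, 435 in PH and 509 in SC-β. COL1A1 (ENSG00000108821.14, chromosome 17, 50184101 to 50201632, reverse strand) was at 8.71, 12.5, 7.63, 4.46, 42.9 and 34.1 TPM. Both were higher in PH and in SC-β than in PP by at least 2-fold. COL1A2 exceeded COL1A1 at every stage, by 8.04 times in hESCs, then 3.69 in DE, 2.09 in PGT, 25.6 in PP, 10.1 in PH and 14.9 in SC-β. As background, the usual type I protein holds more α1 than α2 chains.

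Type V collagen sets the diameter of type I fibrils. COL5A1 was at 4.32 TPM in hESCs, then 31.5 in DE, 14.6 in PGT, 6.32 in PP, 39.2 in PH and 63.1 in SC-β. COL5A2 was at 44.6, 85.9, 7.60, 142, 58.8 and 115 TPM. COL5A1 had its low points in hESCs and PP and COL5A2 its low point in PGT, so the ratio of COL5A1 to COL5A2 ranged from 0.0446 in PP to 1.92 in PGT. COL5A3 was listed at 0 in DE and PGT and reached 4.32 TPM in SC-β. COL5A2 lies tail-to-tail with COL3A1, 19151 bases apart. In PH against PP the log2 ratio was 4.46 for COL3A1 and -1.25 for COL5A2, so these neighbours differed in direction.

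COL2A1, the type II chain known from cartilage, was the most abundant collagen of PP. COL2A1 (ENSG00000139219.19, chromosome 12, 47972967 to 48004554, reverse strand) was at 2.77 TPM in hESCs, then 10.3 in DE, 92.9 in PGT, 364 in PP, 26.2 in PH and 133 in SC-β. It made up 51.8% of the fibrillar sum in PP, and its log2 ratio was 1.96 in PP against PGT and -1.45 in SC-β against PP. COL11A2, a partner of type II in heterotypic fibrils, was also highest in PP, at 8.16 TPM. COL11A1 was at 11.6 TPM in hESCs, then 13.5 in DE, 9.76 in PGT, 16.7 in PP, 26.3 in PH and 57.1 in SC-β. COL9A1, a chain of the type IX collagen on type II fibrils, was at 2.30, 11.9, 3.65, 15.9, 6.94 and 12.0 TPM in the same order. Type II, XI and IX genes did not all peak together, since COL9A2 was highest in DE and COL9A3 in PGT.

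Of the other fibrillar genes, COL27A1 was at 6.16 TPM in hESCs, then 39.3 in DE, 65.9 in PGT, 31.9 in PP, 12.9 in PH and 38.8 in SC-β. COL24A1 was below 1 TPM except in SC-β, at 5.70 TPM. COL27A1 was the only fibrillar gene with its highest mean in PGT.

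**Figure D5:**
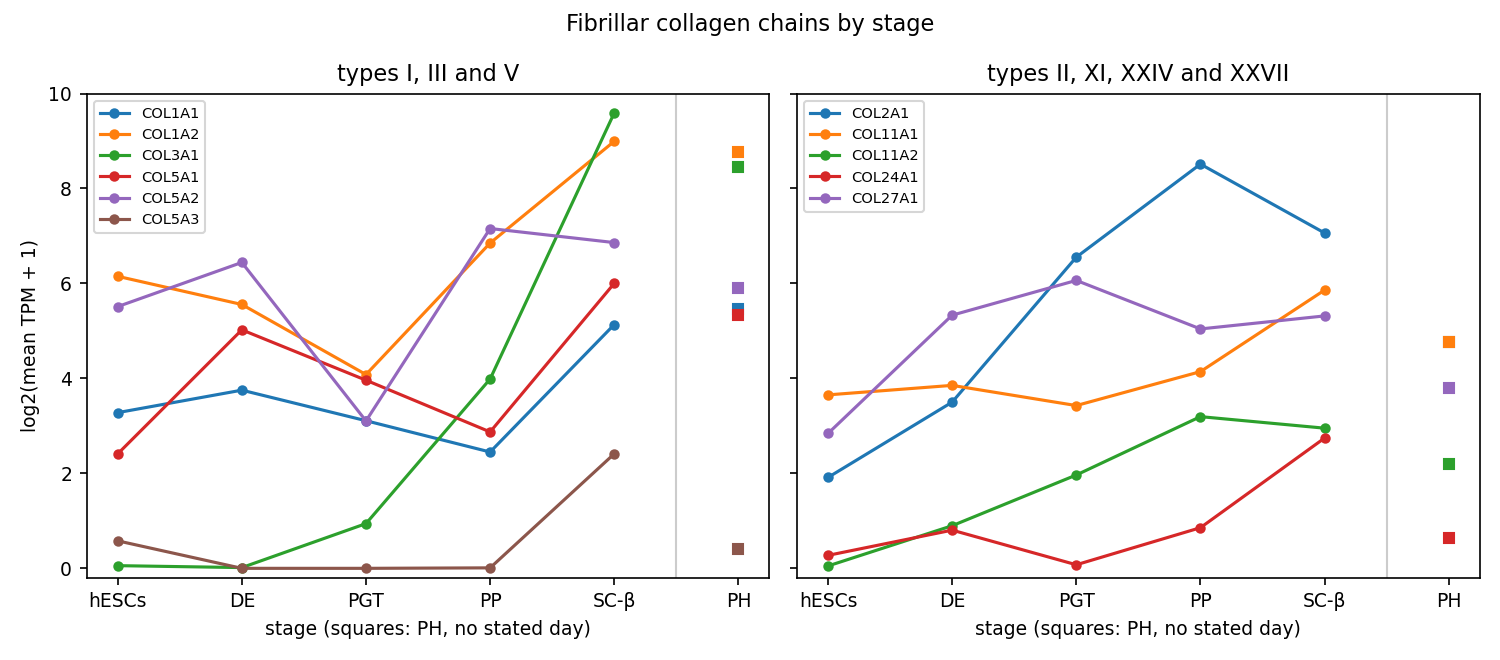
Mean level, as log2(mean TPM + 1), of the chains of types I, III and V (left) and of types II, XI, XXIV and XXVII (right) by stage, with lines through the stages in order and squares for PH. COL3A1 goes from 0.040 TPM (hESCs) up to 771 TPM (SC-β), and COL2A1 is highest in PP at 364 TPM.

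Type VI collagen forms microfilaments around cells from α1, α2 and a further chain. COL6A1 was at 84.1 TPM in hESCs, then 218 in DE, 93.2 in PGT, 53.5 in PP, 150 in PH and 104 in SC-β. COL6A2 was at 61.8, 204, 48.3, 21.4, 129 and 75.0 TPM. These neighbours on chromosome 21 followed the same order of stages at the top, with DE first and PH next. COL6A3 was at 1.54 TPM in hESCs, then 0.671 in DE, 0.186 in PGT, 1.63 in PP, 71.2 in PH and 144 in SC-β. The ratio of COL6A3 to COL6A1 was 0.0184 in hESCs, 0.0305 in PP, 0.476 in PH and 1.39 in SC-β. COL6A3 alone of the 3 had its highest mean in SC-β, with a log2 ratio to PP of 5.79. COL6A6, an alternative to COL6A3, reached 5.97 TPM in SC-β and did not exceed 1.11 TPM elsewhere, and COL6A5 stayed at or below 0.020 TPM.

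Among the FACIT genes, COL9A2 had the largest difference, from 2.80 TPM in hESCs up to 184 in DE, with 67.4 in PGT, 24.5 in PP, 42.8 in PH and 21.1 in SC-β. COL9A3 was at 41.2, 50.6, 74.5, 19.5, 18.7 and 8.43 TPM, and it was the only collagen gene at least 2-fold lower in SC-β than in hESCs, joined by COL4A1 (log2 ratio -1.27) after median-ratio rescaling. The chains of type IX thus differed in order, with the ratio of COL9A2 to COL9A3 at 0.068 in hESCs and 3.64 in DE. COL16A1 was at 4.88, 7.90, 2.64, 1.38, 43.1 and 40.9 TPM. COL12A1, a tendon and fascia FACIT, was at 1.96, 0.028, 0.233, 4.17, 22.8 and 17.6 TPM. COL14A1 was at 7.43, 2.56, 2.46, 12.9, 20.4 and 17.8 TPM. COL12A1, COL14A1 and COL16A1 all had their highest means in PH, with SC-β next. COL21A1 was at 13.7 TPM in PGT and 14.4 in SC-β, with 1.18 to 6.44 TPM elsewhere. COL22A1, a chain of tissue junctions, was at 17.7 TPM in PP and between 2.29 and 8.64 TPM elsewhere. COL19A1 did not exceed 3.44 TPM and COL20A1 did not exceed 0.171 TPM.

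The transmembrane genes were high at different stages. COL23A1 was at 1.75 TPM in hESCs, then 52.8 in DE, 23.8 in PGT, 5.66 in PP, 7.59 in PH and 13.9 in SC-β. COL13A1, which is known from the neuromuscular junction, was at 2.79, 36.8, 6.66, 8.43, 6.41 and 35.3 TPM. COL25A1 was at 2.95, 6.44, 3.44, 31.0, 12.5 and 10.2 TPM. COL23A1 and COL13A1 were highest in DE and COL25A1 in PP, and COL13A1 was nearly as high in SC-β as in DE. COL17A1, a hemidesmosome chain of skin, did not exceed 4.93 TPM. COL10A1, COL8A1 and COL8A2, which form short-chain networks, reached 11.8, 2.57 and 3.81 TPM. COL26A1 was at 13.4, 25.4, 40.1, 28.9, 10.0 and 29.6 TPM, and COL28A1 did not exceed 3.66 TPM.

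Collagens need enzymes and partners, and 82 genes in 8 lists were followed for them. In DE against hESCs, 18 of the 82 were higher (22.0%) and 9 lower (11.0%), beside 22.5% and 4.43% of names at 1 TPM or more. In PGT against DE, 9 were higher (11.0%) and 10 lower (12.2%), beside 4.0% and 8.56%. In PP against PGT, 10 were higher (12.2%) and 11 lower (13.4%), beside 4.77% and 5.65%. In these steps list genes lay on both sides, and the higher share in DE was close to that of the table. In PH against PP, 18 were higher (22.0%) and 12 lower (14.6%), beside 8.94% and 9.97%. In SC-β, 33 were higher (40.2%) and 2 lower (2.4%) against PP, beside 18.5% and 1.63%. Against PH the counts were 35 (42.7%) and 4 (4.9%), beside 25.5% and 4.19%, and against hESCs 45 (54.9%) and 3 (3.7%), beside 38.6% and 6.44%. The shares of higher list genes in the 3 SC-β comparisons were above those of the table, and the lower shares were small in both.

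Of the 15 genes of prolyl and lysyl hydroxylation and glycosylation, 2 were higher and 0 lower in DE against hESCs, and 2 were higher and 0 lower in SC-β against PP. These counts were no larger a share than the 22.5% and 18.5% of names at 1 TPM or more that were higher. P3H2, a prolyl 3-hydroxylase that acts on type IV collagen, was at 7.75 TPM in hESCs, then 138 in DE, 18.4 in PGT, 4.37 in PP, 4.74 in PH and 14.5 in SC-β. P3H2 was highest in DE, as were COL4A1 and COL4A2. Of the 8 genes of folding and export, 4 were lower and 0 higher in PP against PGT. Among names at 1 TPM or more, 5.65% were lower and 4.77% higher there. In SC-β against hESCs, 2 of the 8 were higher and 1 lower, beside 38.6% and 6.44% of those names. The lower one was SERPINH1, the collagen chaperone HSP47, at 57.3 TPM in SC-β against 209 TPM in hESCs, a log2 ratio of -1.85. FKBP10 was higher, at 109 TPM against 50.5 TPM, a log2 ratio of 1.09. SPARC, a collagen-binding matrix protein, was at 54.0 TPM in PP against 318 TPM in SC-β, a log2 ratio of 2.54.

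Of the 8 genes of propeptide cleavage, 4 were higher and 0 lower in SC-β against PP. PCOLCE, which enhances removal of the C-propeptide, was at 19.5 TPM in PP, 44.6 in PH and 121 in SC-β. Of the 6 crosslinking genes, 3 were higher and 0 lower in that comparison, among them the lysyl oxidases LOXL4, from 1.18 to 39.2 TPM, and LOXL2, from 4.67 to 32.7 TPM. Of the 8 receptors, 3 were higher and 0 lower. DDR2, a receptor tyrosine kinase for fibrillar collagen, was at 3.04 TPM in PP, 16.6 in PH and 50.5 in SC-β. Of the 10 collagenases and inhibitors, 5 were higher and 0 lower, with TIMP3 at 5.79 TPM in PP against 28.8 TPM in SC-β. Beside these counts, 18.5% of names at 1 TPM or more were higher in SC-β than in PP and 1.63% lower.

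Of the 15 basement membrane partners, 5 were higher and 3 lower in DE against hESCs, and 6 higher and 1 lower in SC-β against PP. Among names at 1 TPM or more, 22.5% were higher and 4.43% lower in DE against hESCs. In SC-β against PP these shares were 18.5% and 1.63%. LAMA1, the laminin chain of early embryonic basement membranes, was at 20.7 TPM in hESCs, then 213 in DE, 168 in PGT, 87.3 in PP, 9.69 in PH and 71.4 in SC-β. LAMB1 was highest in PGT, at 516 TPM, as were COL4A5 and COL4A6. LAMA2 and NID2 had the largest log2 ratios in SC-β against PP, of 5.41 and 3.05. Of the 12 fibril partners, 9 were higher and 1 lower in SC-β against PP, beside the same 18.5% and 1.63%. POSTN, which encodes periostin, was at 11.0 TPM in PP, 59.4 in PH and 283 in SC-β. FN1, the fibronectin gene, was at 90.8 TPM in hESCs, then 1846 in DE, 7276 in PGT, 1232 in PP, 86.2 in PH and 609 in SC-β.

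Markers of the cell types that the cultures could hold were set beside these values. Of the 8 mesenchymal markers, 6 were higher and 0 lower in SC-β against PP, and 6 higher and 0 lower in PH against PP, beside 18.5% and 8.94% of names at 1 TPM or more that were higher. Their summed level was 64.7 TPM in hESCs, then 21.7 in DE, 80.0 in PGT, 56.4 in PP, 194 in PH and 634 in SC-β. Single genes carried the early sums, with THY1 at 57.0 TPM in hESCs and PDGFRA at 62.0 TPM in PGT. THY1 was at 10.2 TPM in PP, 8.16 in PH and 9.38 in SC-β, so it was not higher in PH or SC-β than in PP. The mesenchymal transcription factor PRRX1 was at 16.4 TPM in PP, 52.9 in PH and 213 in SC-β, and PDGFRA was at 11.9, 58.1 and 205 TPM. DCN, which encodes decorin, was at 2.13 TPM in PP, 24.2 in PH and 35.7 in SC-β, and TCF21 did not exceed 1 TPM. DCN and LUM are also counted among the fibril partners. The fibrillar genes COL3A1, COL1A2 and COL5A1 and the type VI gene COL6A3 were also higher in PH and SC-β than in PP. Not all fibrillar genes were: in PH against PP, 4 of the 11 were higher and 4 lower (COL2A1, COL5A2, COL11A2 and COL27A1). In SC-β against PP, 7 were higher and 1, COL2A1, was lower. Among names at 1 TPM or more, 8.94% were higher and 9.97% lower in PH against PP, and 18.5% and 1.63% in SC-β against PP. The part of mesenchymal cells in these levels was not tested. In bulk RNA, more cells of a type and more RNA per cell cannot be told apart.

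Of the 8 chondrocyte markers, 1 was higher and 1 lower in PP against PGT, the step in which COL2A1 had a log2 ratio of 1.96. Among names at 1 TPM or more, 4.77% were higher and 5.65% lower in that step. Their summed level was 58.3 TPM in hESCs, then 21.0 in DE, 98.0 in PGT, 68.8 in PP, 31.9 in PH and 40.5 in SC-β. LECT1 carried most of the sum in hESCs, at 45.8 TPM, and HAPLN1 most of that in PGT, at 88.6 TPM. The higher one was SOX9, at 23.7 TPM in PP, and the lower one HAPLN1, at 42.0 TPM. COMP, MATN1 and ACAN were at 0.00682, 0.0553 and 0.485 TPM in PP, and MATN3, MATN4 and LECT1 at 0.918, 0.0404 and 1.60 TPM. Of the 5 notochord markers, 0 were higher and 3 lower in PP against PGT, beside the same 4.77% and 5.65%. Their summed level was 91.0 TPM in PGT and 25.0 in PP. FOXA2, also used as a stage marker below, and SHH carried most of the PGT sum, at 48.7 and 32.6 TPM. The notochord genes T and NOTO were at 0 and 0.0623 TPM there. In PP, FOXA2 was at 13.2 TPM, SHH at 10.1 TPM and NOTO at 0.0429 TPM. The part of chondrocytes or notochord cells in the COL2A1 levels was not tested.

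Of the 6 endothelial markers, 1 was higher and 1 lower in DE against hESCs, beside 22.5% and 4.43% of names at 1 TPM or more. The higher one, VWF, was at 191 TPM against 0.465 TPM, and the lower one, TEK, at 1.01 TPM against 32.3 TPM. The defining endothelial genes PECAM1 and CDH5 were at 0.430 and 0.0984 TPM in DE, the stage in which COL4A1 and COL4A2 were highest. The part of endothelial cells in these collagen levels was not tested. Summed endothelial marker level ranged from 1.84 to 3.12 TPM in PGT, PP, PH and SC-β. Of the 5 smooth muscle markers, 4 were higher and 0 lower in SC-β against PP, beside 18.5% and 1.63% of names at 1 TPM or more. ACTA2 was at 15.2 TPM in PP against 73.1 TPM in SC-β. The summed smooth muscle level was 310 TPM in hESCs, then 270 in DE, 8.08 in PGT, 32.7 in PP, 22.6 in PH and 207 in SC-β. TAGLN carried most of the sums in hESCs and DE, at 277 and 251 TPM, where ACTA2 was at 1.59 and 0.250 TPM.

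Of the 5 epithelial markers, 0 were higher and 5 lower in PH against PP, beside 8.94% and 9.97% of names at 1 TPM or more. Their sum was 781 TPM in PP, 127 in PH and 497 in SC-β. The basement membrane collagen sum was likewise lowest in PH, at 155 TPM. Of the 7 neural progenitor markers, 6 were higher and 0 lower in PH against PP, beside the same 8.94% and 9.97%. Their sum was 129 TPM in PP, 409 in PH and 185 in SC-β. PH was thus the stage with the fewest epithelial transcripts and the most neural progenitor transcripts among PP, PH and SC-β, and the part of either in its collagen levels was not tested.

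The stage labels were checked with 8 marker genes. POU5F1 was highest in hESCs (1449 TPM), SOX17 in DE (96.1 TPM), FOXA2 in PGT (48.7 TPM), PDX1 in PP (3.17 TPM) and INS in SC-β (298 TPM). NANOG was highest in hESCs (44.6 TPM). NKX6-1, a gene of pancreatic progenitors and β cells, was highest in SC-β (5.37 TPM) and not in PP. GCG, the glucagon gene of α cells, was at 2793 TPM in SC-β, above INS. In PH, PDX1 was at 0.0173 TPM and INS at 6.86 TPM.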

How the data were processed

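Per the paper's methods and the labels, the authors extracted total RNA with Trizol, and sequenced paired ends of 50 bp. The methods name RiboMinus removal of ribosomal RNA, whereas the labels name both RiboMinus and a TruSeq Stranded mRNA kit. Reads were aligned to hg38 with HISAT2 (version 2.2.0), per the submitters' processing notes, and StringTie (version 2.1.6) gave TPM. The annotation is not given in the sources used here. The authors deposited the mean TPM of the 2 samples of each stage, in 6 columns and 50451 rows under 49085 names. Rows sharing a name (231 names) were summed. TPM keeps no counts, so the depth of single samples is unknown and no interval, floor or test was possible.

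From these means, log2 ratios with a pseudocount of 1 TPM, sums per class, ratios of chains and counts past 2-fold were computed (Python 3.11.15, numpy 2.4.6, pandas 2.3.3, matplotlib 3.10.9). Positions, exon overlaps and neighbours within 100 kb came from GENCODE on GRCh38, the build of hg38, and promoters from RefSeq.

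The members and lists were chosen with earlier results of these data known. Stage values were named for collagen genes at 10 TPM or more in a stage and for the pairs and chains compared. From the pathway and marker lists, the genes named were the 2 with the largest log2 ratio of a comparison among those at 10 TPM or more, and the markers that define a list. Collagen genes under 10 TPM that are given a value were added to account for every member. SERPINH1, SOX9, ACTA2 and LAMB1, where outside that rule for the comparison given, were chosen after their values were seen. The other assays of the series were not analysed here.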

Additional observations from a re-analysis of the deposited data

How the results depend on the processing

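Each value is a mean of 2 samples, so leaving out a replicate was not possible and the spread between samples is unknown. No paired analysis was possible because the table holds stage means and no column for a replicate. Of the 21 class sum ratios and 308 gene ratios, none reversed from 2-fold in one direction to the opposite sign under any alternative run. A count has no sign, so the 19 counts could not reverse in this sense. The shares of all names past the threshold were taken only in the main run. The collagen counts of the alternative runs therefore have no share of all names beside them, and whether they exceed it there was not examined. With a 4-fold threshold, the higher and lower collagen genes numbered 10 and 0 in DE against hESCs, 2 and 5 in PGT against DE, 6 and 2 in PP against PGT, 7 and 3 in PH against PP, 9 and 0 in SC-β against PP, and 6 and 0 in SC-β against PH, with 18 higher in SC-β against hESCs. A pseudocount of 0.1 TPM gave 5 lower genes in DE against hESCs, 7 higher in PGT against DE and 3 lower in SC-β against PH. Median-ratio rescaling gave 4 lower genes in SC-β against PH, as did totals without mitochondrial and the 100 most abundant genes, and 2 lower in SC-β against hESCs. Median-ratio rescaling set the log2 ratio of the class sums to 0.0040 for fibrillar and -0.88 for other genes in PGT against DE, -0.13 for basement membrane and 0.88 for other genes in SC-β against PP, 0.99 for basement membrane and -0.44 for other genes in SC-β against PH, and 0.69 for other genes in SC-β against hESCs. Totals without the abundant genes gave 0.0080 and -0.88 in PGT against DE, -0.11 and 0.90 in SC-β against PP, and -0.40 for other genes in SC-β against PH. Without the most abundant chain, other genes were at -0.97 in PGT against DE, 0.99 in PH against PP, 0.76 in SC-β against PP and 0.81 in SC-β against hESCs, and fibrillar genes at -0.075 in PH against PP and 0.49 in SC-β against PP. Type IV genes alone gave 1.21 in SC-β against hESCs, where all basement membrane genes gave 0.84. The counts of genes with their highest mean in a stage were also taken without PH, an alternative chosen after seeing the data, and stayed within 1.5 times. Taking the highest entry of a repeated name, or only genes that reached 1 TPM in either compared stage, could not change a count, since every collagen gene had 1 row and a 2-fold call with the pseudocount of 1 TPM needs that level. Of the gene ratios, 34 newly passed 2-fold with the smaller pseudocount, 8 newly passed and 21 no longer passed after median-ratio rescaling, and 14 and 13 did so without the abundant genes. Of the ratios short of 2-fold, 15 changed sign after median-ratio rescaling and 9 without the abundant genes. COL1A2 in SC-β against PH was among both, at 0.23 as deposited and at -0.27 and -0.23 in these runs. The stage of the highest level was not taken again in these runs. Some ratios are among more than 1 of these counts. The depth behind low values is unknown.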
